A study of Mus musculus with 3 samples.

Results

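Replication-dependent histone genes encode the core histones H2A, H2B, H3 and H4 and the linker histones H1 that package newly copied DNA. The probe sets described here are those with at least 1 annotated symbol of the H1f, H2ac, H2bc, H3c, H4c or H4bc series, or of the older series from Hist1h to Hist4h, and there are 50 of them among 24800 on the array. By class, 8 measure H1, 4 H2A, 14 H2B, 12 H3 and 10 H4, and 2 list genes of several classes. Their symbols stand for 67 genes. A probe set of its own was present for 30 genes, and the other 37 were measured only by the 20 probe sets that list several genes, which are called shared below.

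The study compared γδNKT cells, innate-like T cells of the thymus with a γδ T cell receptor, with and without functional PLZF, a transcription factor encoded by Zbtb16. There were 3 Affymetrix Mouse Gene 1.0 ST arrays of total RNA, 1 each for PLZFlu/lu, PLZF+/lu and PLZF+/+ cells. In PLZFlu/lu mice both alleles carry luxoid, a point mutation of Zbtb16, in PLZF+/lu mice 1 allele does, and in PLZF+/+ mice none. All mice were C57BL/6 females of 3 to 4 weeks, and per the study's methods all carried the Vγ1Vδ6.4 T cell receptor transgene without Rag1, so the cells have 1 fixed receptor and arise in a thymus without normal αβ T cells. CD4+CD8α- thymocytes were sorted and sorted again, and neither labels nor methods give the number of mice behind an array. The differences have no replicate check, so no test was run and 2-fold is a rule of size.

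Most histone genes of this kind lie in clusters and are transcribed when a cell enters S phase, under the control of the coactivator NPAT. Their mRNAs end in a stem-loop in place of a poly(A) tail. The stem-loop is bound by SLBP, and the mRNAs are rapidly lost when DNA synthesis stops, so their level follows the share of cells that are copying DNA. A separate group, the replication-independent variants, is made throughout the cell cycle from ordinary polyadenylated mRNAs. Labelling that does not depend on a poly(A) tail, as in the whole-transcript kit named by the labels, can detect both kinds. In a sorted population, fewer cells in S phase and less histone RNA per cell cannot be told apart.

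The promoters of 4 genes are shown because 3 of them, H2ac4, H2bc14 and H4c3, had measured values on probe sets of their own that were lower by more than 1.5-fold in PLZF+/lu than in PLZF+/+ cells, while the values of H4c9 were the same on the 3 arrays. H2bc4 and H2bc21, which were also lower by more than 1.5-fold in PLZF+/lu cells, are not shown. The PLZF+/lu value of H2ac4 was below the background level defined further down. Each window holds the 250 bases before the transcript start in RefSeq, build GRCm38.p6, written 5′ to 3′ on the strand of the gene. H2ac4 lies at chr13:23750838-23751087 on the plus strand between H2bc3 and H3c2, and H2bc14 at chr13:21721794-21722043 on the plus strand between H2ac14 and H4c11. H4c3 lies at chr13:23698459-23698708 and H4c9 at chr13:22041363-22041612, both on the minus strand. Capitals mark the CCAAT box (CCAAT), the TATA box (TATAAA) and the octamer (ATTTGCAT), on either strand.
H2ac4: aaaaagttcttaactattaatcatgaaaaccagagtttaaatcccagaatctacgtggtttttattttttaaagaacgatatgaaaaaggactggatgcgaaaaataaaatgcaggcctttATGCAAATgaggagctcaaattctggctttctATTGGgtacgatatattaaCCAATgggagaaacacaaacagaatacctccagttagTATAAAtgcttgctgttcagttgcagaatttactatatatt
H2bc14: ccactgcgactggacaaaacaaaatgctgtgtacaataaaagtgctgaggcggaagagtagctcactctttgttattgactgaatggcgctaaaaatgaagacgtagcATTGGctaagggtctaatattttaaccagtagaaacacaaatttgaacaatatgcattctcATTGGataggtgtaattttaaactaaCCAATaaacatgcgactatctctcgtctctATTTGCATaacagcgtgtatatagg
H4c3: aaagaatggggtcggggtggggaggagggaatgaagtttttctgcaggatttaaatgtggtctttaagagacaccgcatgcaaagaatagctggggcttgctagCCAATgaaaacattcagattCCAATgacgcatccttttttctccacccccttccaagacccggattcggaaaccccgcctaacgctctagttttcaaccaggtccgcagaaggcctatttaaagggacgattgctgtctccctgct
H4c9: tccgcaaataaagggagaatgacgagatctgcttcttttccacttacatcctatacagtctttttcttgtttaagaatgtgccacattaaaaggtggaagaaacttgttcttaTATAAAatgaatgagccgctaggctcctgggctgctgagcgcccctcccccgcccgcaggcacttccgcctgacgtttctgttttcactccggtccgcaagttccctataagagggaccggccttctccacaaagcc

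The H2ac4 and H2bc14 windows both hold an octamer, the site bound by OCT1, and 2 or more CCAAT boxes, the site bound by NF-Y. The H4c3 window holds 2 CCAAT boxes and no octamer, and the H4c9 window holds TATAAA alone. That match begins 137 bases before the transcript start, against 41 for the TATAAA match of H2ac4. Of the 67 genes, 62 had a promoter in the table. The octamer was present in 12 of them (19.4%), against 1.61% of all 27025 promoters, and these were 6 of 17 H2A genes (35.3%) and 6 of 15 H2B genes (40.0%). A CCAAT box was present in 50 (80.6%, against 34.5% of all promoters), among them 17 of 17 H2A and 15 of 15 H2B genes but 3 of 11 H4 genes. TATAAA was present in 28 (45.2%, against 13.0%), and 8 (12.9%, against 1.91%) held 1 of the E2F sites TTTGGCGC, TTTCCCGC, TTTCGCGC and TTTGCCGC. Both strands were searched throughout, neighbouring H2A and H2B genes that point away from each other can share a window, and a match does not show that the factor binds.

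The labels were checked on a few genes. Zbtb16 had intensities of 2890 in PLZFlu/lu, 6143 in PLZF+/lu and 8796 in PLZF+/+ cells, although the luxoid transcript can still hybridise. Of 15 measured genes of a γδ T and NKT cell list, 14 were above background, beside 15090 of all 24800 probe sets. The background level was taken as 108, below which lay 95% of the values of 1033 probe sets for olfactory receptors. Klrb1c, which encodes NK1.1, was at 29.5 on all arrays. Icos, a costimulatory receptor on the same list, had 1198 in PLZFlu/lu, 1758 in PLZF+/lu and 2733 in PLZF+/+ cells. Array medians lay between 159.7 and 161.8. Values equal within 1e-06 on the log2 scale are common in this table, and 45.1% of all probe sets had 1 value on all 3 arrays, as did 3 of the 50 histone probe sets, so equal values are counted apart from higher and lower ones below.

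Of the 50 histone probe sets, 41 were above background on at least 1 array, beside 15090 of all 24800 probe sets. By background knowledge, 6 of the genes with a probe set of their own are not typical replication-dependent genes. H1f6, H1f7, H2ac1 and H2bc1 belong to the testis, H1f8 to the oocyte, and H1f10 is a replication-independent linker histone. H1f8 was at 83.2 on each array and H1f6 at 64.7, 64.7 and 60.0 in PLZFlu/lu, PLZF+/lu and PLZF+/+ cells, below background in both cases. The other 4 were above it on at least 1 array. In the same order of genotypes, H2ac1 was at 289, 288 and 289, and H1f7 at 139, 153 and 139. H1f10 was at 151, 154 and 154, and H2bc1 at 115, 96.7 and 118, below background in PLZF+/lu cells.

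**Figure D1:**
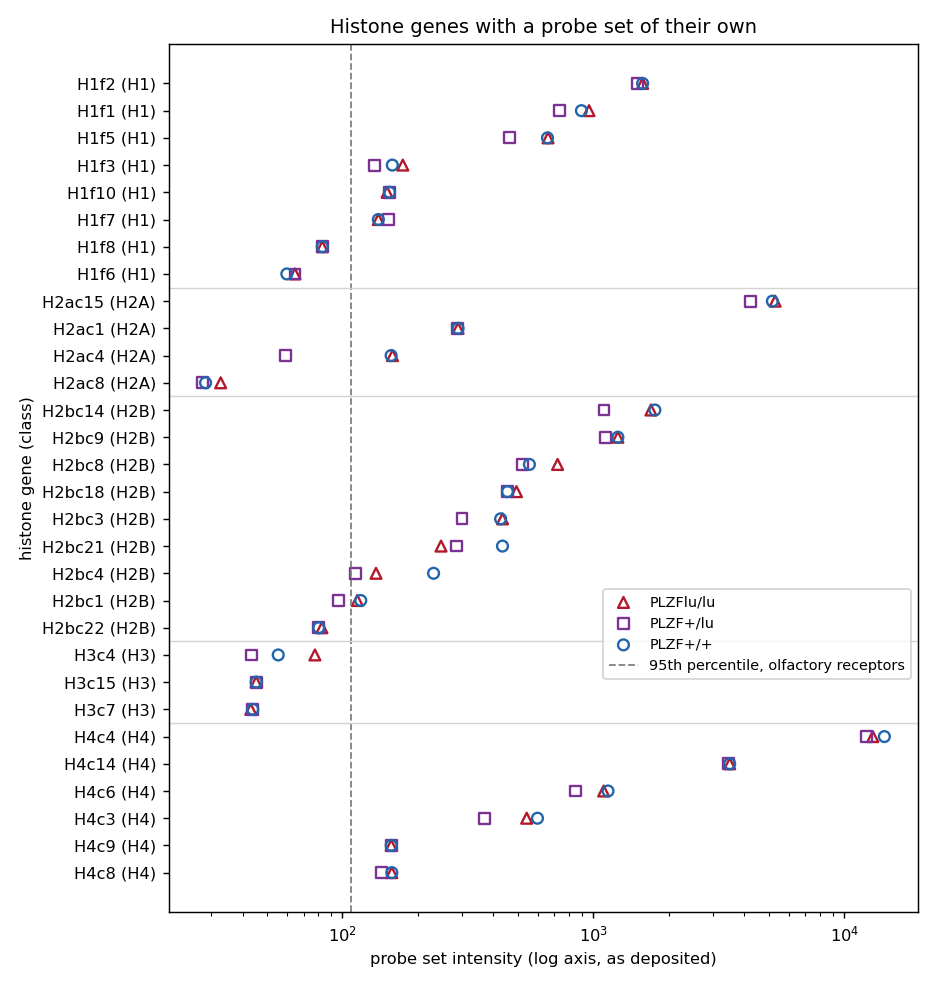
Intensity of the 30 histone genes with a probe set of their own, 1 row per gene ordered by class, on a log axis, with triangles for PLZFlu/lu, squares for PLZF+/lu and circles for PLZF+/+ (1 array each) and the dashed line at the background of 108. The square lies left of the circle for 21 genes, while triangle and circle are close for most genes apart from H2bc21 and H2bc4.

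In PLZFlu/lu against PLZF+/+ cells the histone genes as a group were level. Higher values were found at 17 probe sets (beside 19.3% of all probe sets) and lower values at 21 (beside 24.5%), and 12 were equal, with a median log2 difference of 0.00, the same as over all 24800 probe sets. Past 2-fold there was 1 histone probe set, which was lower, beside 0.589% of all probe sets in either direction and 0.286% lower. Past 1.5-fold there were 3, all lower and all H2B, beside 0.879% of all probe sets lower by that much.

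In PLZF+/lu against PLZF+/+ cells most histone genes were lower. Lower values were found at 40 of 50 probe sets (80.0%), higher at 3, and 7 were equal, beside 24.1% of all probe sets lower and 22.1% higher. The median log2 difference was -0.21, against 0.00 over all probe sets. Among the 41 histone probe sets above background 36 were lower (87.8%), beside 36.2% of all probe sets above background. The differences were small. Past 1.5-fold there were 8, all lower, beside 0.694% of all probe sets lower by that much, and past 2-fold 3, all lower, beside 0.165%. Both counts use measured values and include H2ac4 and H2bc4. In PLZF+/lu cells H2ac4 was below background, so its difference is only known to be at least 1.45-fold, and H2bc4 was at 113, near background.

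PLZFlu/lu cells set against PLZF+/lu cells had higher values at 39 histone probe sets, lower at 6 and equal at 5, with a median log2 difference of 0.15. Of all probe sets, 21.6% were higher and 24.6% lower in this comparison. Past 1.5-fold 3 were higher, beside 0.645% of all probe sets, namely H2ac4, H2bc14 and H3c4, and 2 were lower, beside 0.419%, namely shared H2B probe sets 3 and 5 described below. H3c4 was below background on all arrays and H2ac4 in PLZF+/lu cells, so of the 3 higher ones H2bc14 alone was measured above background on both arrays. The measured values of H2ac4 alone were past 2-fold, beside 0.198% of all probe sets higher. The 3 comparisons use the same 3 arrays, so they are not separate evidence. The PLZF+/lu array had the lowest of 3 values at 37 of 50 histone probe sets, beside 12.5% of all probe sets, and at 33 of the 41 above background, beside 18.2%. The PLZFlu/lu array was lowest at 5, the PLZF+/+ array at 1, and PLZF+/lu lay between the other genotypes at 2. Over all 24800 probe sets these counts were 3423, 2977 and 2923, in that order. Since only 1 array stands for PLZF+/lu, its genotype and this array cannot be told apart.

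The other 24 genes with a probe set of their own were taken as replication-dependent by their names alone, H2bc21 among them. They were lower in PLZF+/lu than in PLZF+/+ cells in 19 cases, beside 24.1% of all probe sets, and equal in 5. Their median was -0.23. For the 6 germline or replication-independent genes the counts were 2 lower, 2 higher and 2 equal, with a median of 0.00. Genes of the large cluster with the older prefix Hist1, counted over probe sets of their own, were lower in 19 of 23 cases with a median of -0.23, and those with the prefix Hist2 in 2 of 4 with a median of -0.01. The shared probe sets were lower in 19 of 20 cases, with a median of -0.24.

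**Figure D2:**
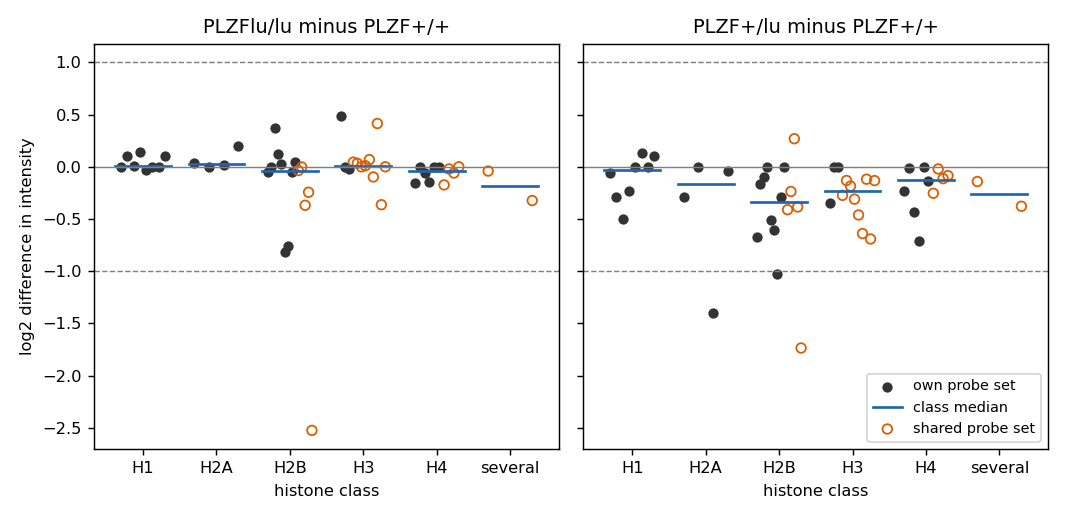
Log2 difference of each histone probe set by class, for PLZFlu/lu minus PLZF+/+ (left) and PLZF+/lu minus PLZF+/+ (right), with filled points for probe sets of 1 gene, open points for shared ones, a line at each class median and dashed lines at 2-fold. On the left the class medians lie near 0 and 3 H2B points lie apart below, and on the right each class median is below 0, from -0.03 for H1 to -0.34 for H2B.

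The linker histones H1 bind the DNA that enters and leaves the nucleosome. H1f5 had an intensity of 660 in PLZFlu/lu, 463 in PLZF+/lu and 657 in PLZF+/+ cells, with log2 differences from PLZF+/+ of 0.01 in PLZFlu/lu and -0.50 in PLZF+/lu cells. H1f1 had 961, 734 and 897 in that order of genotypes, with differences of 0.10 and -0.29. For both genes PLZF+/lu was apart from the other arrays, which lay close together. H1f2, a somatic linker histone, had 1572 in PLZFlu/lu, 1504 in PLZF+/lu and 1572 in PLZF+/+ cells, and H1f3 had 174, 135 and 158. The median over the 8 H1 probe sets was 0.00 in PLZFlu/lu and -0.03 in PLZF+/lu cells, and 4 of them measure the germline or replication-independent genes H1f6, H1f7, H1f8 and H1f10.

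H2A and H2B pair as dimers on the outside of the nucleosome. H2ac15 had an intensity of 5304 in PLZFlu/lu, 4228 in PLZF+/lu and 5171 in PLZF+/+ cells (log2 differences from PLZF+/+ of 0.04 and -0.29). H2ac4, whose promoter is shown above, had 158 in PLZFlu/lu, 59.2 in PLZF+/lu and 156 in PLZF+/+ cells. The PLZF+/lu value was below background, so the difference from PLZF+/+ is given as at least 1.45-fold lower, although the measured values differ by 2.64-fold and count among the 3 past 2-fold. Against PLZF+/lu cells, PLZFlu/lu cells were at least 1.47-fold higher. H2ac8 was below background on all arrays, at 32.7, 27.8 and 28.5. All 4 H2A probe sets were lower in PLZF+/lu than in PLZF+/+ cells, with a median of -0.16, beside 24.1% of all probe sets lower.

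Against PLZF+/+ cells, H2B had the widest range of differences of the classes when shared probe sets are counted, and its genes with their own probe sets fell in several patterns. H2bc14 had an intensity of 1697 in PLZFlu/lu, 1103 in PLZF+/lu and 1759 in PLZF+/+ cells, so that PLZF+/lu was 1.60-fold lower than PLZF+/+ while PLZFlu/lu differed from it by -0.05 on the log2 scale. H2bc3 had the same form, with 435, 299.7 and 427 (differences of 0.03 and -0.51), and H2bc9 had 1253, 1116 and 1253. In these genes the PLZF+/lu array alone was low. H2bc8 was instead highest in PLZFlu/lu cells, at 720, against 521 in PLZF+/lu and 556 in PLZF+/+ cells, and H2bc18 was at 494, 455 and 455.

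H2bc21 and H2bc4 were low on both luxoid arrays. H2bc21, an H2B gene known from mouse olfactory neurons, had an intensity of 247 in PLZFlu/lu, 285 in PLZF+/lu and 434 in PLZF+/+ cells, which is 1.76-fold lower in PLZFlu/lu and 1.52-fold lower in PLZF+/lu than in PLZF+/+ cells. H2bc4 had 136 in PLZFlu/lu, 113 in PLZF+/lu and 231 in PLZF+/+ cells, 1.70-fold and 2.04-fold lower. The PLZFlu/lu and PLZF+/lu values of H2bc4 lie close to the background of 108. Among the 30 genes with a probe set of their own, these are the only ones past 1.5-fold between PLZFlu/lu and PLZF+/+ cells. H2bc21 lies between H2ac20 and H3c15, and H2bc4 between H2ac6 and H1f6, so they are not neighbours. H3c15 was at 45.3 on all arrays, below background.

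The largest histone difference came from a shared H2B probe set. Shared H2B probe set 5, numbered with the others by mean level, had an intensity of 432 in PLZFlu/lu, 746 in PLZF+/lu and 2485 in PLZF+/+ cells, 5.75-fold lower in PLZFlu/lu and 3.33-fold lower in PLZF+/lu than in PLZF+/+ cells. It is the 1 histone probe set past 2-fold between PLZFlu/lu and PLZF+/+. No other shared H2B probe set came near this difference, although all 5 list the same 14 genes, and 2 of them list H2bc1 besides. The gene named H4bc24 on these lists is an H2B gene, with the older symbol Hist1h2br. Shared H2B probe set 1 had 5661, 4366 and 5803 (log2 differences from PLZF+/+ of -0.04 and -0.41), and probe set 2 had 4209, 3578 and 4216. Probe set 4 had 1013 in PLZFlu/lu, 919 in PLZF+/lu and 1200 in PLZF+/+ cells.

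Shared H2B probe set 3 ran the other way in PLZF+/lu cells, with 1020 in PLZFlu/lu, 1586 in PLZF+/lu and 1316 in PLZF+/+ cells. It was the only histone probe set above background, apart from that of the testis gene H1f7 (139, 153 and 139), that was higher in PLZF+/lu than in PLZF+/+ cells. All 5 shared H2B probe sets were lower in PLZFlu/lu than in PLZF+/+ cells, by -0.00 to -2.52 on the log2 scale. Of all probe sets, 24.5% were lower in that comparison. Which of the 14 genes sets each value cannot be read from the annotation. H2bc4, which was 1.70-fold lower in PLZFlu/lu cells by its own probe set, is on the list of all 5, and H2bc21 is on none.

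**Figure D3:**
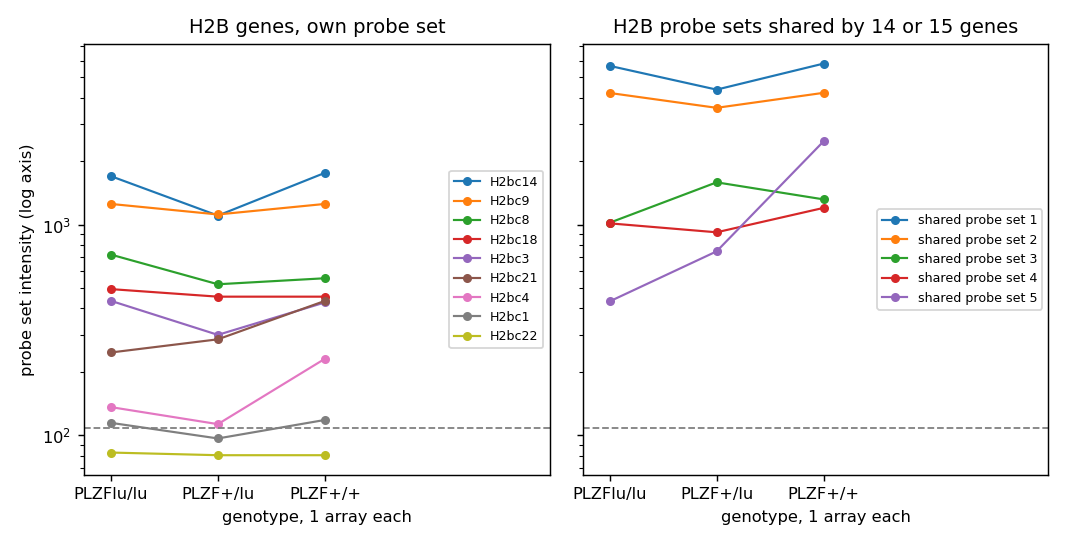
Intensity on a log axis of the 9 H2B genes with a probe set of their own (left) and of the 5 H2B probe sets shared by 14 or 15 genes (right) in PLZFlu/lu, PLZF+/lu and PLZF+/+ cells, 1 array each, with lines joining the values of a probe set and the dashed line at the background of 108. Shared probe set 5 is at 432 in PLZFlu/lu and 746 in PLZF+/lu cells, against 2485 in PLZF+/+ cells, while shared probe sets 1 and 2 are lowest in PLZF+/lu cells.

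H3 and H4 form the tetramer at the centre of the nucleosome. The 3 H3 genes with a probe set of their own were below background on all arrays. The 9 shared H3 probe sets each list the same 12 genes, and 8 of them were above background. Shared H3 probe set 9 was below it on all arrays, at 38.7 in PLZFlu/lu, 35.3 in PLZF+/lu and 38.7 in PLZF+/+ cells. All 9, the dim one included, were lower in PLZF+/lu than in PLZF+/+ cells, by 0.12 to 0.69 on the log2 scale. Of all probe sets, 24.1% were lower in that comparison. Shared H3 probe set 1 had 12145 in PLZFlu/lu, 9741 in PLZF+/lu and 11776 in PLZF+/+ cells, probe set 2 had 11632, 10377 and 11364, and probe set 3 had 9279, 8164 and 9279. Each was lowest in PLZF+/lu cells, and probe set 5 had 5886, 4076 and 5611. Shared H3 probe set 6 had 2118, 1455 and 2266, which is 1.56-fold lower in PLZF+/lu than in PLZF+/+ cells. PLZFlu/lu and PLZF+/+ values lay close together in these 5 probe sets.

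Probe sets 7 and 8 of H3 departed from this in PLZFlu/lu cells, in opposite directions. Shared H3 probe set 7 had 1762 in PLZFlu/lu, 1217 in PLZF+/lu and 1322 in PLZF+/+ cells, a log2 difference of 0.41 between PLZFlu/lu and PLZF+/+. Shared H3 probe set 8 had 506, 403 and 650, with -0.36 for PLZFlu/lu and a PLZF+/lu value 1.61-fold lower than PLZF+/+. H3c4 was at 77.7, 43.6 and 55.5, below background throughout. Over the 12 H3 probe sets the median was 0.01 in PLZFlu/lu and -0.23 in PLZF+/lu cells.

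No H4 probe set was higher than PLZF+/+ on either luxoid array. In PLZFlu/lu cells 6 of 10 were lower and 4 equal, with a median of -0.04, smaller than the SD of the olfactory receptor probe sets (0.09). In PLZF+/lu cells 9 were lower and 1 equal, with a median of -0.12. Of all probe sets 24.5% and 24.1% were lower in these comparisons, and of those above background 34.8% and 36.2%. H4c4 had 12992 in PLZFlu/lu, 12290 in PLZF+/lu and 14451 in PLZF+/+ cells, with log2 differences from PLZF+/+ of -0.15 and -0.23, and shared H4 probe set 1, which lists H4c4 among 11 genes, had 10703, 10126 and 12071. H4c3 had 543, 367 and 599, so PLZF+/lu was 1.63-fold lower than PLZF+/+ and PLZFlu/lu differed by -0.14. H4c6 had the same order, with 1099, 848 and 1144. H4c9, whose window is shown above, was at 156 on all arrays, and H4c14 at 3495, 3467 and 3495.

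The 2 probe sets of several classes were also lowest in PLZF+/lu cells. The one that lists H2bc6 and H1f4 had 403 in PLZFlu/lu, 376 in PLZF+/lu and 414 in PLZF+/+ cells. The one that lists 19 genes, nearly all of them H2A, had 294, 283 and 368, with log2 differences from PLZF+/+ of -0.32 and -0.38. A further 3 histone genes of the older Hist3 and Hist4 series carry symbols outside the rule. H2aw had 2953 in PLZFlu/lu, 3007 in PLZF+/lu and 3287 in PLZF+/+ cells, H4f16 had 799, 729 and 860, and H2bu2 had 106, 97.7 and 119, so that each was highest in PLZF+/+ cells.

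Genes that copy DNA alongside histone synthesis were lower on both luxoid arrays. Of 46 measured S-phase replication genes, 30 were lower, 2 higher and 14 equal in PLZFlu/lu against PLZF+/+ cells (median log2 difference -0.17). In PLZF+/lu cells 34 were lower and 12 equal (median -0.18). The lower shares were 65.2% and 73.9%, beside 24.5% and 24.1% of all probe sets and 34.8% and 36.2% of those above background. Hells, a chromatin remodeller, had 166 in PLZFlu/lu, 145 in PLZF+/lu and 230 in PLZF+/+ cells, and Cdca7, which recruits it, had 850, 694 and 1124. Pcna, the sliding clamp of the replication fork, had 4116, 3646 and 5252. The histone medians over the same comparisons were 0.00 and -0.21.

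Of 30 measured genes of G2 and mitosis, 7 were lower, 3 higher and 20 equal in PLZFlu/lu against PLZF+/+ cells (median 0.00), and 21 were lower and 9 equal in PLZF+/lu cells (median -0.12). The lower shares were 23.3% and 70.0%, beside 24.5% and 24.1% of all probe sets and 34.8% and 36.2% of those above background. The PLZF+/lu array was the lowest of 3 for 21 of the 30 genes, beside 18.2% of all probe sets above background. Bub1, a spindle checkpoint kinase, had 146 in PLZFlu/lu, 87.0 in PLZF+/lu and 146 in PLZF+/+ cells, the PLZF+/lu value being below background. Mki67, which codes for the proliferation marker Ki-67, had 676, 402 and 605. These cell cycle genes were lower alongside the histone genes in PLZF+/lu cells, and their part in the histone result was not tested.

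**Figure D4:**
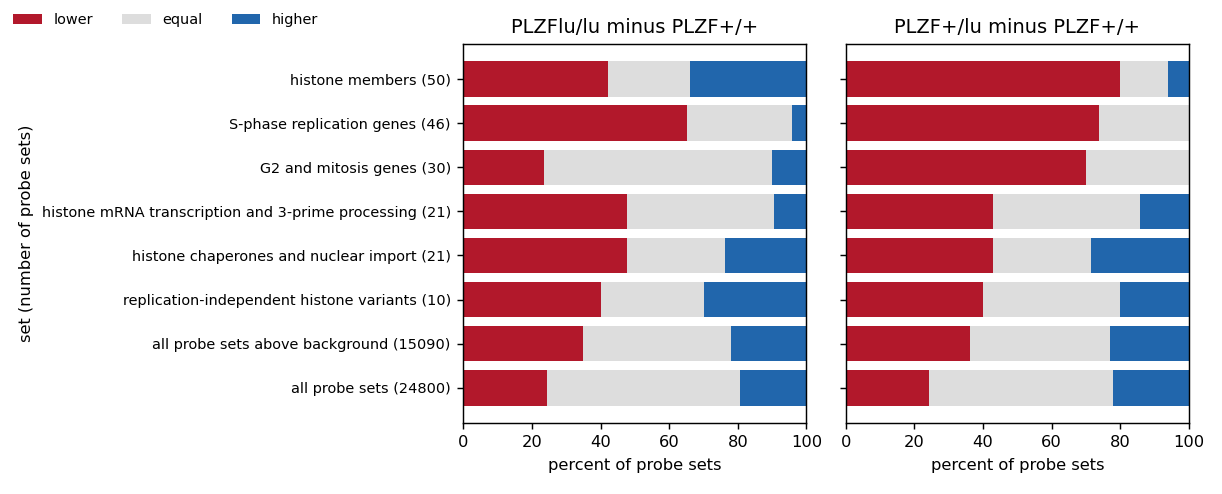
Percent of probe sets lower (red), equal (grey) and higher (blue) for the 50 histone probe sets, 5 related gene lists and all probe sets, in PLZFlu/lu minus PLZF+/+ (left) and PLZF+/lu minus PLZF+/+ (right). The lower share of the histone probe sets is 80.0% on the right, beside 24.1% of all probe sets.

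Of 21 measured genes for histone transcription and 3′ end processing, 10 were lower (47.6%), 2 higher and 9 equal in PLZFlu/lu against PLZF+/+ cells. In PLZF+/lu cells 9 were lower (42.9%), 3 higher and 9 equal. Of all probe sets 24.5% and 24.1% were lower, and of those above background 34.8% and 36.2%. Of the 21 genes, 20 were above background. None was past 1.5-fold, and the medians were 0.00, a value held by the 9 equal genes. Slbp, the stem-loop binding protein, had 615 in PLZFlu/lu, 586 in PLZF+/lu and 732 in PLZF+/+ cells (log2 differences of -0.25 and -0.32). Lsm10, a subunit of the U7 snRNP that cuts histone mRNA precursors, had 617, 571 and 705, and Ncbp2, a cap-binding protein, had 475, 457 and 551. E2f1, a transcription factor of S-phase genes, had 219, 219 and 253. All 4 were lower on both luxoid arrays than on the PLZF+/+ array, while Npat, the coactivator, had 883, 856 and 883, a difference below the SD of the olfactory receptor probe sets.

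Among 21 measured histone chaperones and import factors, 10 were lower, 5 higher and 6 equal in PLZFlu/lu cells, with a median of 0.00. In PLZF+/lu cells the counts were 9, 6 and 6, also with a median of 0.00. The lower shares were 47.6% and 42.9%, beside 34.8% and 36.2% of all probe sets above background, as all 21 genes were. Asf1b, a chaperone of H3 and H4 in proliferating cells, had 507 in PLZFlu/lu, 436 in PLZF+/lu and 762 in PLZF+/+ cells (log2 differences of -0.59 and -0.80). Anp32e, a chaperone of H2A.Z, had 1064, 1166 and 1683 (-0.66 and -0.53). Asf1b was past 1.5-fold on both luxoid arrays and Anp32e on the PLZFlu/lu array. Of 10 measured replication-independent variants, which include the members H1f8 and H1f10, 3 were higher, 4 lower and 3 equal in PLZFlu/lu cells. In PLZF+/lu cells the counts were 2, 4 and 4. The lower share was 40% in both comparisons, beside 24.5% and 24.1% of all probe sets and 34.8% and 36.2% of those above background. Macroh2a1 had 4083 in PLZFlu/lu, 3454 in PLZF+/lu and 3005 in PLZF+/+ cells, an order unlike that of most histone genes, and H2az1, an H2A.Z gene, had 2472, 2228 and 2816. The other H2A.Z gene, H2az2, had 2467, 2475 and 2849, and H2ax, whose protein is phosphorylated at DNA breaks, had 435, 382 and 461.

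Markers of other cells were examined on the same arrays. The 11 measured genes of CD4+CD8+ thymocytes, whose immediate precursors divide rapidly, had summed intensities of 25344 in PLZFlu/lu, 23386 in PLZF+/lu and 22708 in PLZF+/+ cells, a sum set mostly by Ccr9, Themis and Cd8b1. Gene by gene, 9 of the 11 were higher in PLZFlu/lu than in PLZF+/lu cells and 2 equal, and 7 were higher, 1 lower and 3 equal in PLZFlu/lu against PLZF+/+ cells. In PLZF+/lu against PLZF+/+ cells 4 were higher, 4 lower and 3 equal. Of all probe sets above background, 29.0% were higher in the first of these comparisons, 21.9% in the second and 23.0% in the third. The 2 CD8 genes were highest in PLZFlu/lu cells, with Cd8b1 at 2958, 2263 and 1290 and Cd8a at 601, 519 and 369. PLZF+/lu was lowest for 4 of the 11 genes, beside 12.5% of all probe sets and 18.2% of those above background. Ccr9 was at 12274 in PLZFlu/lu, 11485 in PLZF+/lu and 12864 in PLZF+/+ cells, and Rag1 at 278, 211 and 229. Dntt was at 210, 157 and 162, and Rag2 was below background at 51.2, 49.5 and 51.2. For Dntt and Rag2 the log2 difference of PLZF+/lu from PLZF+/+ was -0.05, smaller than the SD of the olfactory receptor probe sets (0.08). All mice lacked Rag1 per the study's methods, so its values do not measure a working gene, and their source was not tested. The part of such cells in the histone result was not tested. Summed intensities of 7 B cell genes were 1880, 1908 and 2124, of 13 myeloid and dendritic genes 1396, 1447 and 1409, of 11 genes of epithelium and stroma 3886, 3893 and 3860, and of 3 erythroid genes 315, 316 and 316. The B cell sum was set mostly by Cd79b, at 1406 in PLZFlu/lu, 1440 in PLZF+/lu and 1658 in PLZF+/+ cells. Cd79a, Ms4a1 and Ebf1 were below background. Pecam1, at 2643 on all arrays, set most of the epithelium and stroma sum. Lyz2 was at 69.1 and Csf1r at 72.5 on all arrays, below background. Other genes of these lists were above it on all arrays, such as Cd68 (myeloid) at 386, Blk (B cell) at 146 and Col1a1 (stroma) at 241. Above background on at least 1 array were 4 of the 7 B cell and 5 of the 13 myeloid and dendritic genes. So were 6 of the 11 genes of epithelium and stroma and 1 of the 3 erythroid genes, beside 15090 of all 24800 probe sets.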

How the data were processed

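CD4+CD8α- thymocytes of 3 genotypes were each measured on 1 array. In GenePattern, the authors ran ExpressionFileCreator, then MultiplotPreprocess and Multiplot, left out normalization controls, and deposited linear intensities for 24800 probe sets. The build mm8 stands in the submitters' processing notes. How background was corrected, probes summarised and arrays scaled is not given in the sources used, and such steps can shrink or equalise small differences. Every value column was matched to a sample.

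Names come from the platform annotation, which lists 1 symbol for 21065, several for 1187 and none for 2548. Symbols were updated to the GRCm38.p6 RefSeq table, which also gave the promoters. Intensities were compared as log2 differences with no pseudocount, and values within 1e-06 were taken as equal. A probe set was counted past 2-fold, and past 1.5-fold where stated. With 1 array per genotype there is no test, and precision is limited by their number. A fold against a value below 108 is given as a bound from that level.

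Any histone gene may be named. Those past 1.5-fold between any arrays and the 3 brightest per class are given in full, and in related lists those past 1.5-fold or up to 4 with the largest differences, except that the lists of B, myeloid, stromal and erythroid cells are given as sums. Further list genes and the 3 histone genes outside the symbol rule were chosen after their values were seen. The histone genes and lists were chosen with earlier results of these data known.

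Alternatives were quantile normalization, median centring, cyclic loess, 32 added to each intensity, dim or shared probe sets left out, 1.5-fold and 3-fold thresholds and class means. Leaving out the 6 germline or replication-independent genes, averaging probe sets with the same list of symbols, and the bounds were added after seeing the data. The scripts were tested on simulated data. Python 3.11.15, numpy 2.4.6, pandas 2.3.3, matplotlib 3.10.9, R 4.3.3 and limma 3.58.1 were used.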

Additional observations from a re-analysis of the deposited data

How the results depend on the processing

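No paired analysis was possible because there is 1 array per genotype, and for the same reason no array could be left out. Of 354 values under the alternatives, 333 stayed within the SD of the olfactory receptor differences, or within 1.5 times a count, 21 moved, and 0 reversed direction. A reversal was looked for only where the main median was larger than that SD. Counts and smaller medians could therefore not be called reversed. The median over the histone probe sets lay between -0.00 and 0.00 for PLZFlu/lu minus PLZF+/+, between -0.25 and -0.15 for PLZF+/lu minus PLZF+/+, and between 0.10 and 0.18 for PLZFlu/lu minus PLZF+/lu.

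The histone probe sets past the threshold were 3 at 1.5-fold and 0 among those with exactly 1 symbol for PLZFlu/lu against PLZF+/+, 8 at 1.5-fold and 1 at 3-fold for PLZF+/lu against PLZF+/+, and 5 at 1.5-fold and 0 at 3-fold for PLZFlu/lu against PLZF+/lu. As means, the H2B difference of PLZFlu/lu from PLZF+/+ was -0.31, the H2A difference of PLZF+/lu from PLZF+/+ was -0.43, and between PLZFlu/lu and PLZF+/lu H1 differed by 0.15 and H2A by 0.50. Without dim probe sets the PLZF+/lu minus PLZF+/+ medians were -0.15 for H1, -0.29 for H2A and -0.28 for G2 and mitosis genes, and the PLZFlu/lu minus PLZF+/lu medians were 0.22 for H1 and -0.12 for myeloid genes. Without the 6 germline or replication-independent genes, H1 and H2A had -0.26 and -0.29 for PLZF+/lu minus PLZF+/+, and H1 had 0.38 for PLZFlu/lu minus PLZF+/lu. With exactly 1 symbol H3 rests on 3 dim probe sets, and its medians were 0.00 for PLZF+/lu minus PLZF+/+ and 0.00 for PLZFlu/lu minus PLZF+/lu. With 1 value per list of symbols, H3 differed by 0.17 between PLZFlu/lu and PLZF+/lu. Quantile normalization, centring, cyclic loess and the pseudocount of 32 moved none of these values past that spread. Values near 108 cannot be told from background.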
